A study of Mus musculus with 5 samples.

Results

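The genes of the proteasome were examined for acetylation of histone H3 at lysine 9 (H3K9ac) in mouse striatal progenitor cells. Members were the protein-coding genes of the GENCODE vM1 annotation, on the mm9 assembly, whose symbols begin with Psma, Psmb, Psmc, Psmd, Psme or Psmg. This gave 49 genes of 22238 protein-coding genes, from 51 of 22380 gene identifiers, because Psmd14 and Psmb9 each carried more than 1 identifier. Peaks were assigned to a member if they were centred no more than 10 kb from any annotated transcript start of that gene, which took 137 of the 34286 peaks of the DOP-treated list and 153 of the 33355 peaks of the untreated list. The symbol rule also took in Psmc3ip, a cofactor of meiotic recombination that is no proteasome subunit, and Psme2b-ps, whose symbol marks a pseudogene although the annotation lists it as protein coding.

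The cells were STHdh Q111, a conditionally immortalized line of mouse striatal progenitors of strain C57BL/6 and genotype STHdhQ111/Q111, whose mutant huntingtin carries an expanded CAG repeat. All groups were held in serum-free medium for 24 h, either with vehicle (DPBS) or with 4 mM 4-deoxypyridoxine hydrochloride (DOP), an inhibitor of the sphingosine-1-phosphate lyase. H3K9ac chromatin was immunoprecipitated from 2 samples of each condition, and 1 IgG sample of serum-starved cells was not analysed here. The peak lists held 1 call per condition, so the spread between replicates is not known, no test was made, and every difference below is a difference between 2 lists of a single cell line. The depth is likewise not known.

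Each peak carried the authors' score, with medians of 419 (DOP-treated) and 400 (untreated). What the score counts is not given in the sources used here, and peaks were therefore ranked within their own list. A percentile is the rank of a peak's score as a percent of the peaks in its list, so that 100 is the highest peak. A peak was shared when its interval, 200 bp long, overlapped a peak of the other list by at least 1 bp. Of the markers checked for the labelled cell type, the progenitor marker Vim had 3 DOP-treated and 4 untreated peaks, the highest at percentiles 98.0 and 94.0. Nes and Sox2, which also mark neural progenitors, had 0 peaks in either list. The neuronal genes Rbfox3, Tubb3, Drd1a and Drd2, the glial genes Gfap and Aqp4 and the leukocyte gene Ptprc had 0 peaks, whereas Ppp1r1b, a marker of striatal projection neurons, had its highest own peak at percentiles 15.1 and 9.69. The microglial gene Aif1 had 4 and 5 peaks within the window, of which 0 were nearest to its own start.

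The proteasome degrades proteins that carry ubiquitin. Its barrel-shaped core is built from rings of alpha subunits (Psma genes), which gate the entry, and rings of beta subunits (Psmb genes), of which Psmb5, Psmb6 and Psmb7 carry the proteolytic sites. The regulatory particle on its ends holds the ATPases that unfold substrates (Psmc genes) and non-ATPase subunits (Psmd genes). Some Psmd subunits bind ubiquitin or remove it, others are structural, and Psmd10 is among the Psmd genes that encode assembly chaperones. Psme genes encode other activators of the core, and Psmg genes encode chaperones that help to assemble it. Degradation of misfolded protein by this machine has been much studied in Huntington's disease, and H3K9ac marks the starts of active genes.

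Promoter sequences were examined around the starts, which is not always where the peaks lay. The RefSeq table of GRCm38.p6 promoters, which run from 250 bases before to 50 bases after the start, held 40 of the 49 members, and 40 of 40 were placed in mm9 by an exact match. Psma8, Psmb1, Psmb2, Psmb7, Psmc3, Psmd3, Psmd7, Psme2b-ps and Psmg2 were not in the table. The promoters printed here are those of the catalytic subunits Psmb5 (chr14:55236783-55237082, minus strand) and Psmb6 (chr11:70338609-70338908, plus strand), and of Psmd11 (chr11:80241867-80242166, plus strand) and Psme3 (chr11:101177277-101177576, plus strand). They are read 5′ to 3′ in the direction of the gene, and capitals mark TGACNNNGC, the core of the antioxidant response element, in the Psmb genes, and CCGGAAG, the core bound by ETS factors, in Psmd11 and Psme3. Both were searched on both strands.
Psmb5: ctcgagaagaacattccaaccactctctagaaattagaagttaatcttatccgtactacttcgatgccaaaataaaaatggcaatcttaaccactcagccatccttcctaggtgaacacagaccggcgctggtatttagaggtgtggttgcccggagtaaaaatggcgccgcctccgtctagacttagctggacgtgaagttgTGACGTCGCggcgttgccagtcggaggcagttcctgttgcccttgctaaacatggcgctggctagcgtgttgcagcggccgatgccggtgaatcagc
Psmb6: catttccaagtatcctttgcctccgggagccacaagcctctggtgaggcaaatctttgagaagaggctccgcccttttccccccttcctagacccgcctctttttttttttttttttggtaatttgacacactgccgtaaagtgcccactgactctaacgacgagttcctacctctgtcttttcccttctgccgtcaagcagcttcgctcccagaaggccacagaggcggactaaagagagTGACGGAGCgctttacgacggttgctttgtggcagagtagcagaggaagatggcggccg
Psmd11: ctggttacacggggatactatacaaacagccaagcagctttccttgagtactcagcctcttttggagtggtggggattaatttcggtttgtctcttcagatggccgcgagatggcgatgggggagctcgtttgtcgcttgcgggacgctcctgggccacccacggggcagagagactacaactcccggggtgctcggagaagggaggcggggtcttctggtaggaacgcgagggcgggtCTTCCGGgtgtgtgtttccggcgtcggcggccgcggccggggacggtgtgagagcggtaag
Psme3: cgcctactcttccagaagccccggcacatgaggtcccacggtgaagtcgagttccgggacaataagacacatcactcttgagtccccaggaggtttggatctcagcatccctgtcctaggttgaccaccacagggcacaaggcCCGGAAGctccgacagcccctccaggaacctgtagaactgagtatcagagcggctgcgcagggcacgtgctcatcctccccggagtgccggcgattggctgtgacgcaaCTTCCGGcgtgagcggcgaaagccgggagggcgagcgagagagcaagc

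The ETS core was found in 14 of the 40 member promoters (35.0%), against 1773 of 14861 promoters in the whole table (11.9%). None of the 7 Psma and 8 Psmb promoters searched held it, whereas it was present in 4 of 6 Psmc promoters (Psmc1, Psmc2, Psmc3ip and Psmc6, or 3 of 5 without Psmc3ip), in 6 of 12 Psmd promoters (Psmd2, Psmd4, Psmd6, Psmd11, Psmd12 and Psmd13), in 2 of 4 Psme promoters (Psme3 and Psme4) and in 2 of 3 Psmg promoters (Psmg1 and Psmg3). Of the 14 holders, 12 had it once, and Psme3 had matches beginning at positions -107 and 3 from the start. In Psmd11 the match began at -11. These are letters in a window and not sites shown to be bound.

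The antioxidant response element core is the motif recognised by Nrf1 (Nfe2l1) and Nrf2 (Nfe2l2), of which Nrf1 is known to raise proteasome genes when the proteasome is impaired. It was present in 6 of the 40 promoters (15.0%), close to the 13.4% of all promoters. The matches began at -47 in Psmb5, at -9 in Psmb6, at -31 in Psmd9 and at -7 in Psme4, and farther upstream at -227 in Psmc6 and at -247 in Psmd12. The other motifs searched on both strands were CCAAT, the CCAAT box, in 15 member promoters (37.5%, all 39.1%), GGGCGG, the GC box, in 23 (57.5%, all 48.2%), TATAAA, the TATA box, in 4 (10.0%, all 12.9%) and GCGCATGC, the nuclear respiratory factor 1 type, in 3 (7.5%, all 3.73%). Matches of different motifs overlapped in 2 member promoters, those of Psmd9 and Psme4. The members' promoters had a median GC content of 58.2%, against 57.0% in the whole table, and a median ratio of observed to expected CpG dinucleotides of 0.749, against 0.603. This ratio was above 0.6 in 28 of the 40 (70.0%), and in 50.3% of all promoters.

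The rank of the peaks was set beside the presence of the ETS core, as a description. Over the 14 holders the highest own peak had a median percentile of 80.6 (DOP-treated) and 84.1 (untreated). Over the 24 searched members without it that had an own peak in the list, the medians were 79.1 and 77.4.

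H3K9ac peaks lay at nearly every proteasome gene in both conditions. In each list 47 of the 49 members had a peak (95.9%, with a 95% Wilson interval from 86.3% to 98.9%, which covers counting error only), whereas 57.8% of all protein-coding genes had a DOP-treated peak and 57.0% an untreated peak. The same 47 members had a peak in both lists, and 0 had one in 1 list only, a state found in 4.02% of all genes. These counts include peaks nearer to a neighbouring gene. When only peaks nearest to the member's own start were counted, 44 members had a peak in both lists. Psmb8 then had one in the DOP-treated list only, Psmb9 in the untreated list only and Psmb11 in neither. The members without a peak were Psma8, the alpha subunit of germ cells, and the pseudogene-like Psme2b-ps. Genes with a peak carried a median of 3 peaks per list, among members and among all genes.

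Several members share their window with another gene, so peaks whose nearest coding start belonged to the member itself are called own peaks here. There were 105 DOP-treated and 122 untreated own peaks, and the remaining 32 and 31 were nearer to a neighbour. For 12 members, the start of a coding gene on the opposite strand lay within 2 kb upstream of one of their starts. For 10 of them the distance was within 500 bp. Examples are Psmc2 and Dnajc2 (32 bp apart), Psmb9 and Tap1 (38 bp), Psmc5 and Ftsj3 (75 bp), Psma7 and Ss18l1 (76 bp) and Psmd13 and Sirt3 (99 bp). The share of all genes with such a neighbour is not given, so these counts describe the members only. The farthest peaks still inside the window were those of Psme1, at 9987 bp (DOP-treated) and 10000 bp (untreated), and the nearest outside lay at 10067 bp from Psmd12 and 10112 bp from Psmb8.

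The own peaks clustered just downstream of the start. Of the 105 DOP-treated own peaks, 52 (49.5%) were centred more than 100 and up to 500 bp downstream, against 41.3% of the own peaks of all genes, and of the 122 untreated own peaks 55 (45.1%) were, against 42.6%. The next stretch, up to 1000 bp downstream, held 18 peaks in the DOP-treated list (17.1%, all genes 14.8%) and 28 in the untreated list (23.0%, all genes 15.4%). Farther upstream, from 1 to 10 kb, there was 1 own peak in each list (0.952% and 0.82%), against 5.57% and 4.93% over all genes. Peaks of a gene that were neighbours within 1 kb were a median of 380 bp (DOP-treated) and 358 bp (untreated) apart, close to 381 and 374 bp over all genes. By annotation, 83 of the 137 DOP-treated peaks (60.6%) and 94 of the 153 untreated peaks (61.4%) were centred in an intron, against 49.8% and 51.2% for all genes. In 5′ UTRs there were 8 (5.84%) and 15 (9.8%), against 13.1% and 13.2%.

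**Figure D1:**
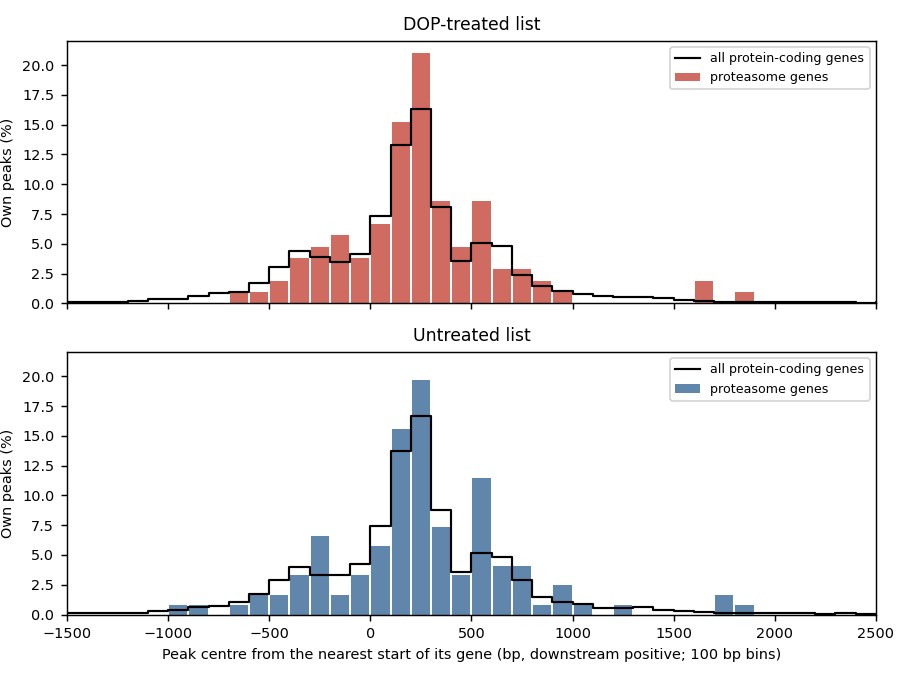
Share of own peaks (vertical axis, percent) in bins of 100 bp by distance from the nearest start of the gene (horizontal axis, bp, downstream positive), with bars for the proteasome genes and a black line for all protein-coding genes, the DOP-treated list above and the untreated list below. Both lists have their highest bars from 100 to 300 bp downstream, and the untreated bars from 500 to 1000 bp hold 28 peaks against 18 in the DOP-treated list.

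The highest own peak was also high in its list for most members. It reached a median percentile of 80.7 over the 45 members with a DOP-treated own peak and of 82.6 over the 45 with an untreated own peak, against 74.4 and 73.3 for all genes. It was above percentile 50 in 42 (93.3%) and 43 (95.6%) of these members, against 76.5% and 75.4% of all genes. Its centre lay a median of 231 bp downstream of the start among DOP-treated peaks (untreated 241 bp), and 1 to 500 bp downstream in 39 and 37 members (86.7% and 82.2%, all genes 76.6% and 77.0%).

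**Figure D2:**
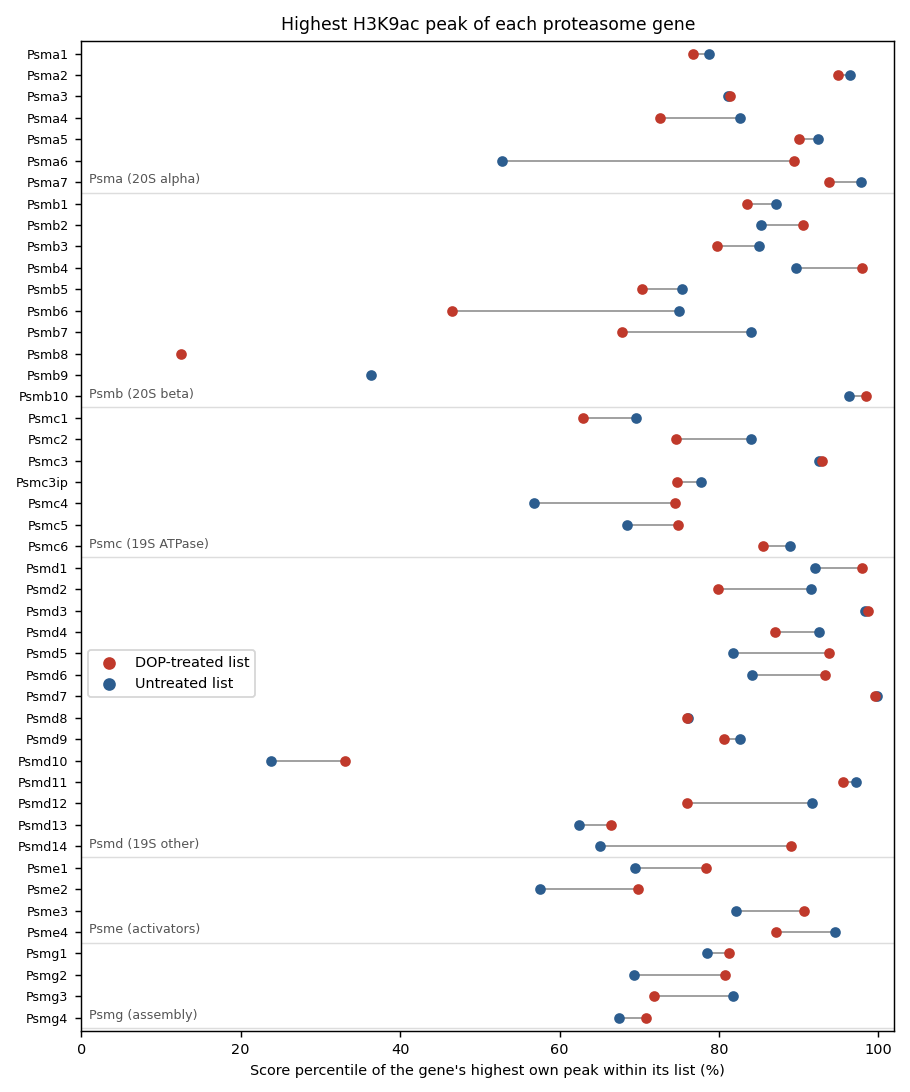
Score percentile of the highest own peak (horizontal axis, percent) of each proteasome gene with an own peak, 1 row per gene in the order of the symbol groups, with red points for the DOP-treated list, blue points for the untreated list and a grey line joining them. Most points lie above 60, Psmd7 is highest at 99.6 and 99.8, Psmd10 is low in both lists at 33.1 and 23.8, and the longest line is that of Psma6, from 52.8 to 89.4.

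Among the alpha subunits, 7 of 8 genes had peaks, 19 DOP-treated and 25 untreated, and the median percentile of the highest own peak was 89.4 and 82.7. The former is the value of Psma6 itself. Of the 7 genes, 5 ranked lower in the DOP-treated list and 2 ranked higher, where 42.6% of all genes ranked lower. In the untreated list Psma7 was the highest of the group at percentile 97.8 (280 bp downstream) and stood at 93.8 in the DOP-treated list. Psma6 was the lowest at 52.8 and stood at 89.4 in the DOP-treated list. All 5 of the group's unshared peaks were in the untreated list, at Psma1 (percentile 2.43, 986 bp upstream), Psma2 (36.8, 757 bp downstream), Psma5 (57.4, 233 bp upstream, and 11.5, 1759 bp downstream) and Psma6. Psma5 therefore had 2 DOP-treated and 4 untreated peaks, yet its highest peaks matched closely, at percentile 90.1 (546 bp) and 92.4 (533 bp).

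Psma6 differed most between the lists. Its annotation spans chromosome 12 from 56485209 to 56519441 on the plus strand, and the RefSeq start is the most upstream one. All but 1 of its peaks lay about another annotated start 14553 to 14573 bp farther downstream, where the DOP-treated list had 2 peaks, at percentile 72.8 (262 bp upstream of that start) and 89.4 (347 bp downstream). The untreated list had 5 peaks over the same stretch, at percentiles 50.3, 21.6, 47.7, 37.5 and 52.8, from 330 bp upstream to 381 bp downstream. Their intervals were not all separate. The peaks at 37.5 and 52.8 were centred 380 and 381 bp downstream, and that at 47.7 lay 299 bp downstream. The remaining untreated peak, at 9.41, was the one by the RefSeq start, 173 bp downstream. The sequences below set the RefSeq promoter (chr12:56484959-56485258) beside the higher DOP-treated peak (chr12:56500030-56500229), both on the plus strand and with CpG dinucleotides in capitals.
Psma6 RefSeq promoter: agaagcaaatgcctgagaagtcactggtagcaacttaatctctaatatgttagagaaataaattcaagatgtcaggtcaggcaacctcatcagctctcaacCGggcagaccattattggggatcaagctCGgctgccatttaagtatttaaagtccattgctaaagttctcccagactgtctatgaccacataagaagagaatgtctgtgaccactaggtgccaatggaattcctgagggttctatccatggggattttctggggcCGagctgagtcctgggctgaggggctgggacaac
Psma6 downstream peak: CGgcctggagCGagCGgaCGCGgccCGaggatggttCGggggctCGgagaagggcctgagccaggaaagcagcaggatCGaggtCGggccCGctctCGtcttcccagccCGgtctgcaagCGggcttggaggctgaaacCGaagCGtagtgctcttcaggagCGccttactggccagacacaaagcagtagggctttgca

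The promoter at the RefSeq start holds 3 CpG in 300 bases, an observed to expected ratio of 0.185. The downstream peak holds 17 in 200 bases, a ratio of 0.810.

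The beta subunits had 36 peaks in each list, and the median percentile of the highest own peak was 79.7 (DOP-treated) and 85.0 (untreated). Over Psmb1 to Psmb7 the highest own peaks ranged from 46.5 (Psmb6) to 98.0 (Psmb4) among DOP-treated peaks and from 75.0 (Psmb6) to 89.7 (Psmb4) among untreated peaks. Of the 8 Psmb genes with own peaks in both lists, 5 ranked lower in the DOP-treated list, Psmb1 and Psmb3 among them, and 3 ranked higher, where 42.6% of all genes ranked lower. The constitutive catalytic subunits were among the 5. Psmb5, the chymotrypsin-like subunit, was at 70.3 and 75.4. Psmb6, the caspase-like subunit, was at 46.5 and 75.0. Psmb7, the trypsin-like subunit, was at 67.9 and 84.0. At Psmb6 the DOP-treated list placed peaks at 159 bp (percentile 34.7) and 282 bp (46.5) downstream where the untreated list placed 1 peak at 209 bp. In the window of Psmb3 lay 8 DOP-treated and 10 untreated peaks, 5 and 6 of them nearest to Pcgf2, and its own highest peaks were at 79.7 and 85.0. Unshared peaks of this core were few: Psmb2 had a DOP-only peak at percentile 4.62, 5367 bp downstream, and Psmb4 one at 37.9, 126 bp upstream.

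The inducible and tissue-linked beta subunits varied widely among themselves. Psmb8, Psmb9 and Psmb10 replace the constitutive catalytic subunits in the immunoproteasome that interferon induces, and Psmb11 does so in the thymus. Psmb10 (chr8:108459628-108462292, minus strand) was the highest of the Psmb genes in both lists, with its highest peak at percentile 98.4 in the DOP-treated list (951 bp downstream) and 96.3 in the untreated list (600 bp). Psmb8 had 1 own peak, a DOP-only peak at percentile 12.5, and its other peaks, 5 in each list, were nearest to Tap1, Tap2 or Gm20496. Psmb9 shares its upstream region with Tap1, a peptide transporter of antigen presentation. The peaks nearest Tap1 reached percentiles 89.6 and 82.3, whereas Psmb9 itself had 1 own peak, in the untreated list, at 36.3 and 65 bp downstream. Another untreated-only peak at 39.9 lay 143 bp downstream of a Psmb9 start but nearer to Tap1, so the window of Psmb9 held 2 DOP-treated and 4 untreated peaks. Psmb11 had 0 own peaks, and the peaks in its window were those of Psmb5, at 7580 and 7321 bp upstream in the DOP-treated list and at 7518 bp in the untreated one.

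Psmb10 also held the highest-ranking unshared peaks of all members. The DOP-only peak, at percentile 95.9, was centred 394 bp downstream of the start in a coding exon (chr8:108461799-108461998), and the untreated-only peak, at 96.3, was centred 600 bp downstream in an intron (chr8:108461593-108461792). Their centres were 206 bp apart, so the intervals missed each other by a few bases. A further DOP-only peak lay 1640 bp downstream at percentile 46.7. The shared peaks at 951 and 958 bp downstream stood at 98.4 and 93.6. The sequences are printed on the minus strand, that of the gene, with CpG dinucleotides in capitals.
Psmb10 DOP-only peak: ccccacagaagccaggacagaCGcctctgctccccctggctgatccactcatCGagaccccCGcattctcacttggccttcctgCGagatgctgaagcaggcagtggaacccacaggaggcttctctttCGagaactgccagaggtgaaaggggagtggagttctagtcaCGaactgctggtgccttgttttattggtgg
Psmb10 untreated-only peak: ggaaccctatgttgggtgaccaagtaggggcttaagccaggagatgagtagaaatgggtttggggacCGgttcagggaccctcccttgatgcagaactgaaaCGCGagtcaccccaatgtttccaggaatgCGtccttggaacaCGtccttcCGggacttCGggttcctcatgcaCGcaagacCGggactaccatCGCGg

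The DOP-only sequence holds 6 CpG and the untreated-only sequence 11. The RefSeq promoter of Psmb10 holds 3 in 300 bases, and that of Psmb11 holds 4, ratios of 0.192 and 0.165. Both are thus poor in CpG, and the own peaks differ, with 4 DOP-treated and 3 untreated at Psmb10 and 0 at Psmb11.

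The 6 ATPases of the 19S particle had 16 DOP-treated and 17 untreated peaks, and the median percentile of the highest own peak was 74.7 and 76.8. Over Psmc1 to Psmc6 it ranged from 62.9 (Psmc1) to 92.9 (Psmc3) among DOP-treated peaks and from 56.8 (Psmc4) to 92.5 (Psmc3) among untreated peaks. Psmc4 had 1 DOP-treated peak at percentile 74.5 (269 bp) against 2 untreated peaks at 56.8 (234 bp) and 29.6 (344 bp). Psmc2 stood apart by position: its own peaks were centred 1664 and 1836 bp downstream in the DOP-treated list, close to the 1702 and 1865 bp of the untreated list, while the peaks near its start were nearest to Dnajc2. Unshared peaks were found at Psmc3 (DOP-only at percentile 32.9, nearest Slc39a13, and untreated-only at 30.1, 550 bp downstream) and Psmc6 (DOP-only at 9.97, 332 bp upstream). Psmc3ip, the gene that is no subunit, had own peaks at 74.7 and 77.7.

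The Psmd genes all had own peaks in both lists, with 39 DOP-treated and 44 untreated peaks in their windows and a median percentile of the highest own peak of 88.0 and 87.9. Psmd7 (chr8:110104281-110112382, minus strand), the partner of the deubiquitinase Psmd14, was the highest of all members, at percentile 99.6 in the DOP-treated list (rank 149, 359 bp downstream) and 99.8 in the untreated list (rank 74, 323 bp downstream). Psmd3, a structural subunit of the lid, followed at 98.7 and 98.3. Psmd10, gankyrin, an assembly chaperone of the base on chromosome X, was the lowest of the members with an own peak in both lists, at 33.1 and 23.8, in a promoter region it shares with Atg4a. The highest untreated peak of Psmd7 is shown on the minus strand (chr8:110111960-110112159), with CpG dinucleotides in capitals.
Psmd7 highest peak: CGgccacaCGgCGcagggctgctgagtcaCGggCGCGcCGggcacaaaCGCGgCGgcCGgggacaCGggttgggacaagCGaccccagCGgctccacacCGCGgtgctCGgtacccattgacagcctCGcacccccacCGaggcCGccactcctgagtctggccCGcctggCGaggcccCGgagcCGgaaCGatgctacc

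This sequence holds 25 CpG in 200 bases, a GC content of 74.0% and an observed to expected ratio of 0.917. Psmd7 also had an untreated-only peak at percentile 92.4, centred 11 bp upstream of its start (chr8:110112294-110112493), and the nearest DOP-treated centre was 258 bp away.

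Psmd14, which removes ubiquitin from substrates, had 1 DOP-treated peak at percentile 89.0 (228 bp downstream). The untreated list held 3 peaks over the same stretch, at 59.4 (185 bp), 65.1 (270 bp) and 35.1 (454 bp, unshared). Psmd12, a lid subunit, had 6 DOP-treated and 4 untreated peaks, 3 and 2 of them nearest to Pitpnc1, among them a DOP-only peak at percentile 11.7. Its own highest peak stood at 76.0 (231 bp) with DOP treatment and at 91.7 (194 bp) without. The other unshared peaks of this group were mostly untreated, at Psmd1 (percentile 77.8, 357 bp downstream), Psmd2 (17.1 at 514 bp and 22.5 at 908 bp), Psmd3 (18.3 at 1259 bp), Psmd4 (17.2, 251 bp upstream), Psmd8 (12.5 at 973 bp), Psmd9 (15.0 at 1095 bp) and Psmd10 (9.48 at 590 bp). DOP-only peaks lay at Psmd5 (38.1, 693 bp upstream) and Psmd13 (4.30, 461 bp downstream of an internal start).

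The Psme and Psmg genes follow in the same way. Psme1 and Psme2, which form the interferon-inducible activator of the core, are neighbours on chromosome 14. Psme1 had its highest own peak at percentiles 78.4 (109 bp) and 69.5 (100 bp), with an untreated-only peak at 10.1, 114 bp upstream. Psme2 had own peaks up to 69.9 and 57.6, while the higher peaks in its window, at 78.9 and 81.9, were nearest to Rnf31. A DOP-only peak at 16.4, nearest to Fam158a, lay in the windows of both. Psme3, the nuclear activator, stood at 90.7 and 82.2, with a DOP-only peak at 49.2 (122 bp upstream of a start) and an untreated-only peak at 37.2 (140 bp downstream of a start), 308 bp apart. Psme4, the activator PA200, stood at 87.1 and 94.6, the highest of the group in the untreated list, with an untreated-only peak at 41.1 (603 bp downstream). Of the chaperones, Psmg3 was highest in the untreated list (81.7, DOP-treated 71.9) and Psmg4 lowest (67.4, DOP-treated 70.9). Their unshared peaks were untreated-only, at Psmg1 (7.79, 810 bp upstream) and Psmg4 (33.6, 227 bp upstream).

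**Figure D3:**
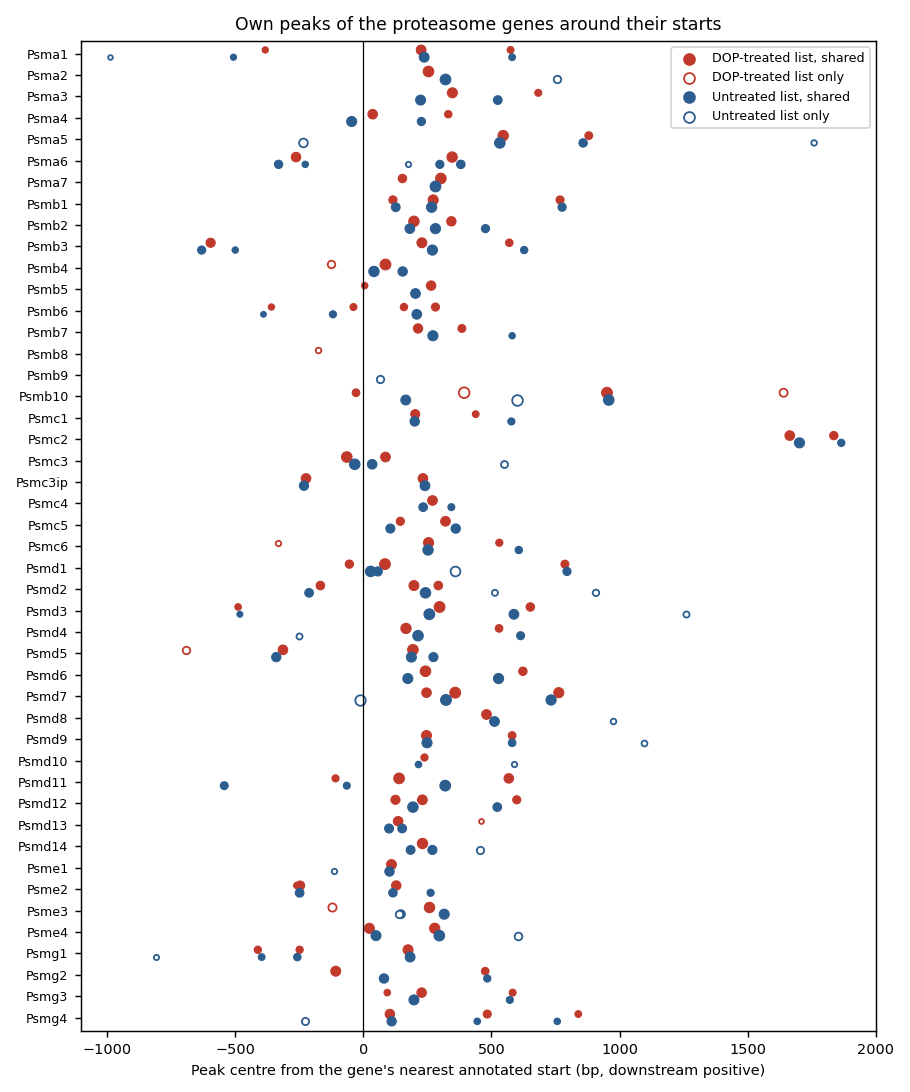
Own peaks of each proteasome gene by the distance of their centre from the nearest annotated start (horizontal axis, bp, downstream positive), 1 row per gene, red for the DOP-treated and blue for the untreated list, filled where the peak is shared and open where it is not, with larger points at higher percentiles. Points gather 100 to 500 bp downstream, both own peaks of Psmc2 in each list lie beyond 1600 bp, and 2 DOP-treated and 1 untreated own peaks fall outside the axis.

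Counted together, the differences in number between the lists ran more often towards the untreated list. More DOP-treated than untreated peaks were found at 12 of the 47 members with a peak (25.5%), against 32.5% of all such genes. Fewer DOP-treated peaks were found at 20 members (42.6%), against 28.5%, and the numbers were equal at 15 (31.9%, all genes 38.9%). Members with fewer led in the Psma group (4 against 2), the Psmd group (7 against 2), the Psmc and Psme groups (2 against 1 in each) and the Psmg group (3 against 1), and in the Psmb group 5 had more and 2 had fewer. Differences of 2 or more peaks were found at 6 members, Psma5, Psma6, Psmb3, Psmb9 and Psmd14 with fewer DOP-treated peaks and Psmd12 with more. No share over all genes is given for this count. Some of these peaks were nearest to other genes. Own peaks, DOP-treated and untreated, numbered 3 and 4 at Psmb3, 0 and 1 at Psmb9 and 3 and 2 at Psmd12. The untreated list thus held more peaks at these genes, 153 against 137, although it was the shorter list.

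Most peaks were shared. In the DOP-treated list 125 of 137 (91.2%, interval 85.3% to 94.9%) overlapped an untreated peak, and 12 (8.76%) were DOP-only, against 16.2% of the DOP-treated peaks near any coding start. In the untreated list 129 of 153 (84.3%, interval 77.7% to 89.2%) were shared and 24 (15.7%) were untreated-only, against 13.3%. The unshared peaks had a median percentile of 24.7 (DOP-only, all genes 22.0) and 26.3 (untreated-only, all genes 22.6). Under percentile 50 stood 11 of 12 (91.7%, all genes 84.7%) and 20 of 24 (83.3%, all genes 82.1%), shares near those of all genes. The exceptions were Psmb10 among the DOP-only peaks and Psma5, Psmb10, Psmd1 and Psmd7 among the untreated-only peaks. A centre of the other list lay within 1 kb of 8 of the 12 DOP-only peaks (66.7%, all genes 65.8%) and of 23 of the 24 untreated-only peaks (95.8%, all genes 70.0%). Shared peaks were offset by a median of 34 bp in the DOP-treated and 35 bp in the untreated list. Of the 23 untreated-only peaks that were own peaks, 11 lay more than 500 bp downstream, 5 lay 1 to 500 bp downstream and 7 upstream. Of the 9 own DOP-only peaks, 2 lay more than 500 bp downstream and 5 upstream. No share over all genes is given for these positions, so they describe the members only.

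The rank of the highest own peak differed in both directions between the lists. A lower percentile is a lower rank in the list and need not be a lower score. Psmd8, for example, stood at 76.0 (DOP-treated) and 76.1 (untreated) with scores of 745.0 and 718.9. Ranks within a list cannot show a change common to all peaks, and the paper reported an overall rise of H3K9ac with DOP. Over the 44 members with own peaks in both, the DOP-treated percentile minus the untreated percentile had a median of -0.166 points, against 0.866 points over 11066 genes. The DOP-treated percentile was higher in 21 members and lower in 23 (52.3%, all genes 42.6%). The median size of the difference was 5.76 points, against 4.35 over all genes, and 18 members differed by at most 5 points. The middle range of all genes, from the 10th to the 90th centile, ran from -8.74 to 12.9 points, and 7 members lay below it and 3 above. The 6 differences over 15 points were those of Psma6 (36.6), Psmd14 (23.9) and Psmc4 (17.7), higher in the DOP-treated list, and of Psmb6 (-28.4), Psmb7 (-16.1) and Psmd12 (-15.8), lower. The highest own peaks of a gene were a median of 39 bp apart between the lists, and within 100 bp in 37 of 44 members. For these distances, and for the counts at 5 and 15 points, the values over all genes are not given, so they describe the members only.

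Most of the 6 largest differences in percentile came with unequal numbers of own peaks. Unequal numbers were also the usual state, since 16 of the 44 members and 5249 of 11066 genes had equal numbers. Psma6, Psmd14 and Psmc4 had fewer own peaks in the list where the highest peak ranked higher (2 against 6, 1 against 3 and 1 against 2), as did Psmb6 and Psmd12 in the other direction (3 against 4 and 2 against 3), whereas Psmb7 had 2 in each. The 6 untreated peaks of Psma6 include peaks whose intervals overlapped almost wholly, and 1 peak by the RefSeq start, far from the others. Over all 44 members the pattern was looser. Of the 20 with fewer own DOP-treated peaks, 11 had the higher percentile in the DOP-treated list (55.0%, all genes 76.6%). The median difference of the 20 was 0.327 points, against 5.2 points over all such genes. Of the 8 with more, 6 had the lower percentile in the DOP-treated list (75.0%, all genes 63.6%). The median difference of the 8 was -4.56 points, against -1.64 points over all such genes. The 16 with equal numbers were divided 8 and 8, with a median of 0.0619 points. Over all genes with equal numbers, 59.3% had the higher percentile in the DOP-treated list, and the median was 0.906 points. Whether 1 stretch of acetylation was divided into more peaks in a list, so that each scored less, was not tested, since the reads were not analysed here.

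**Figure D4:**
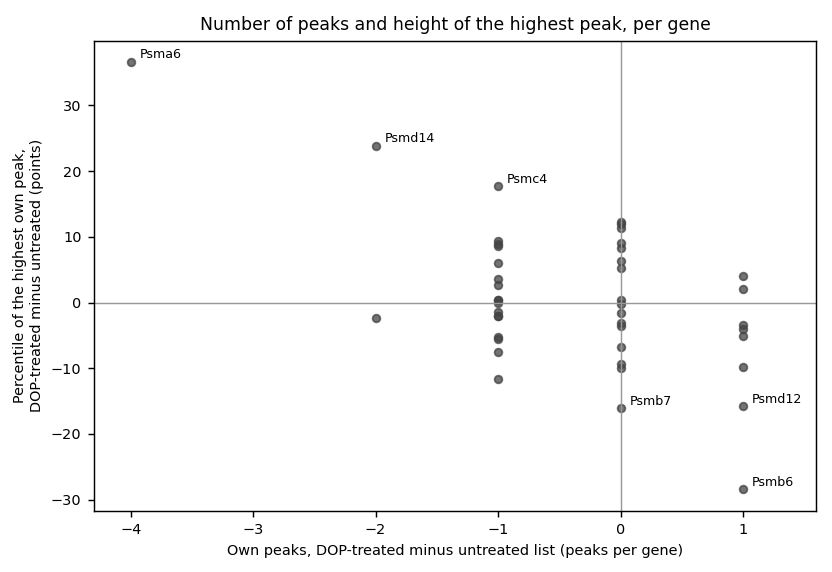
Difference in the number of own peaks (horizontal axis, DOP-treated minus untreated, peaks per gene) and difference in the percentile of the highest own peak (vertical axis, DOP-treated minus untreated, percentile points), 1 point per gene for the 44 members with own peaks in both lists, with those beyond 15 points named. Psma6 and Psmd14 sit at the upper left, with fewer DOP-treated own peaks and a higher DOP-treated percentile, and Psmb6 and Psmd12 at the lower right. The 16 members at 0 on the horizontal axis fall 8 above and 8 below the line.

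Genes that work with the proteasome also carried H3K9ac peaks. Of 27 such genes listed for comparison, 26 were annotated under the symbol used and all 26 had a peak in both lists (all protein-coding genes 57.8% and 57.0%), 109 DOP-treated and 114 untreated peaks in total. The DOP-treated list had more peaks at 9 (34.6%, all genes 32.5%), fewer at 11 (42.3%, all genes 28.5%) and equal numbers at 6 (23.1%, all genes 38.9%). The median percentile of the highest own peak was 91.1 with DOP treatment and 85.6 without (all genes 74.4 and 73.3). The gap between these medians was not shared by every gene. As many of them ranked lower in the DOP-treated list as ranked higher, where 42.6% of all genes ranked lower. The ubiquitin gene Ubb (96.6 and 83.5) ranked high, as did the transcription factor gene Nfe2l2 (98.4 and 94.0) and Ddi2 (98.1 and 89.6), the protease that activates Nrf1. Nfe2l1 had 8 DOP-treated and 7 untreated peaks, up to 91.3 and 86.7. Uba1, the main ubiquitin-activating enzyme, had 6 and 11 peaks, with own peaks up to 71.4 and 55.5. Pomp, the maturation factor of the core, stood at 92.0 and 78.9, and Shfm1, a small subunit of the lid, at 74.0 and 95.9.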

How the data were processed

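H3K9ac was profiled by ChIP-seq in 2 DOP-treated and 2 untreated samples of STHdh Q111 cells. Per the paper's methods the authors used Bowtie 2 for alignment to mm9 and GPS for peak calling, whereas the submitters' processing notes name BWA 0.7.10. The authors deposited 1 peak list per condition, with a score for each peak whose definition is not given in the sources used here, nor is the way the 2 samples of each condition were combined. Intervals are 95% Wilson intervals and cover the counting of genes or peaks only. They treat genes and peaks as independent, although peaks of a gene lie close together. The members are the whole set under the symbol rule and not a sample.

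Peaks were assigned to the GENCODE vM1 starts by their centre, and identifiers with the same symbol and chromosome were merged. All transcript starts were used, and the starts of protein-coding transcripts alone were an added alternative. Members and gene lists were chosen with earlier results of these data known. The members named with values were those without a peak, with a peak in 1 list only or with an unshared peak, the highest and lowest of each symbol group by the untreated percentile, those whose number of peaks differed by 2 or more, and the inducible or tissue-linked subunits and activators. Others were named after their values were seen, among them those with differences over 15 points. GC content and motifs were computed from the RefSeq promoters. The functions were tested on simulated data. Alternatives were other windows, starts, score limits, overlap rules and memberships. Versions were samtools 1.23.1, pysam 0.24.0, pandas 2.3.3, numpy 2.4.6, matplotlib 3.10.9, scipy 1.17.1 and Python 3.11.15.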

Additional observations from a re-analysis of the deposited data

How the results depend on the processing

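The 12 counts, shares and medians of the comparison between the lists were recomputed under 12 alternatives, which gave 114 values, of which 103 stayed within 1.5 times the reported count or within its interval or spread. Keeping only the better-scoring 50% of each list left 82 DOP-treated and 91 untreated peaks, 6 members with more DOP-treated peaks and 13 with fewer, because fewer peaks were counted. The shared share depended on the overlap rule by its construction. A reciprocal overlap of at least 50% gave 78.8% of the DOP-treated and 73.9% of the untreated peaks. Centres within 500 bp gave 93.5% of the untreated peaks, and centres within 1 kb gave 97.1% of the DOP-treated and 99.3% of the untreated peaks. With the most upstream start of each gene only, the highest peak lay a median of 278 bp (DOP-treated) and 287 bp (untreated) downstream. The alternatives without Psmc3ip and Psme2b-ps, and with the starts of protein-coding transcripts only, were chosen after seeing the data and moved none of the 12 beyond these limits. The latter gave the same numbers of member peaks, 137 and 153. No paired analysis was possible because each condition has 1 list, and for the same reason no replicate could be left out. What depth limits is not known, since the lists give no read counts.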
